A study of Komagataella phaffii CBS 7435 with 54 samples.

Results

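The 8 genes described here encode the enzymes by which the yeast *Pichia pastoris* uses methanol, and they were followed in cultures fed with glucose. They were chosen by locus identifier and comprise the alcohol oxidases AOX1 (PAS_chr4_0821) and AOX2 (PAS_chr4_0152), a pair of dihydroxyacetone synthases (PAS_chr3_0832 and PAS_chr3_0834), dihydroxyacetone kinase DAK (PAS_chr3_0841), formaldehyde dehydrogenase FLD1 (PAS_chr3_1028), formate dehydrogenase FDH1 (PAS_chr3_0932) and catalase CTA1 (PAS_chr2-2_0131). Each gene had 1 of the 5371 probes tested, printed as 2 spots per array, and all 8 identifiers were found on the array. In the RefSeq annotation ASM2700v1 both synthase loci lie on chromosome 3 with 1 locus between them, and the kinase locus follows with 5 loci between it and PAS_chr3_0834.

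Methanol is oxidised to formaldehyde and hydrogen peroxide by alcohol oxidase inside peroxisomes, where catalase breaks down the peroxide. Formaldehyde is then either assimilated, when dihydroxyacetone synthase joins it to a pentose phosphate and dihydroxyacetone kinase phosphorylates the product, or oxidised to carbon dioxide by formaldehyde and formate dehydrogenase, which yields NADH. The pathway is known in this yeast for strong induction by methanol and repression while glucose is plentiful, and the AOX1 promoter is widely used to drive recombinant proteins.

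The cultures were all of the strain labelled CBS 7435, which the study's methods describe as a single-colony isolate with the promoter and start of FLO8 replaced by a kanamycin marker, so every group carried the deletion (the deleted gene was not analysed here). Growth was limited by glucose in 4 chemostats at dilution rates of 0.1, 0.075, 0.05 and 0.025 per h, and in retentostats, chemostats whose cells are held back by a filter so that growth slows towards zero, sampled after 21, 65, 116, 380 and 545 h (days 1, 3, 5, 16 and 23). No methanol was fed to these cultures. Each of the 9 conditions had 3 numbered replicates, each hybridised on 2 arrays with the dyes exchanged, against a reference pool of RNA from cells of many conditions that included growth on methanol. The methods describe fewer cultures than numbered replicates, so some replicates share a culture. Standard deviations and p-values measure only the spread between numbered replicates, which may be technical. In the study the retentostat times are successive samples of the same cultures, and the fit used here treated them as independent. Retentostats ran in other bioreactors than the chemostats and accumulated cells, so growth rate, cultivation system, cell density and time cannot be told apart between those groups.

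On the 54 arrays, the culture channel exceeded the scanner software's background limit at 89.9 to 98.4% of spots, and the median culture signal ran from 2591 to 7988 on chemostat arrays and from 1440 to 4608 on retentostat arrays. Every reading of the 8 genes, 108 per gene in each channel, passed that limit and none was saturated. The values below are log2 ratios of culture over pool, means over the 3 replicates with their SD (n = 3). A percentage of pool is the same mean on the linear scale. Each replicate value averages 2 dye orientations, and the SD leaves out the gap between them. That gap, culture in Cy5 minus culture in Cy3, averaged from -0.14 for CTA1 to 0.58 for PAS_chr3_0834. A ratio says how high a gene was relative to its own level in the pool, so ratios order conditions for a gene but do not order the abundance of different genes. In bulk RNA, a change in every cell and a change in the share of expressing cells cannot be told apart.

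A replicate of the chemostat at 0.05 per h stood apart, and deviations were ranked for that condition only. In replicate 3 of the chemostat at 0.05 per h both synthase ratios lay far above those of the other replicates, at -2.94 for PAS_chr3_0832 and -2.71 for PAS_chr3_0834. Replicate 1 held -4.77 and -4.28, and replicate 2 held -4.18 and -3.65. The deviations of replicate 3 from the group mean, 1.02 and 0.84, ranked 1 and 2 of 5367 probes, while those of replicate 1, -0.80 and -0.73, were the lowest 2 of 5371. The group mean includes replicate 3, whose high values lower the deviations of the other replicates. The synthase SDs of 0.93 and 0.79 in this condition were the largest of all probes, against a median of 0.078. CTA1 at -0.0055 and DAK at -0.54 were also highest in this replicate, as were both oxidases, FDH1 and FLD1. Without it, the changes against 0.1 per h at 0.05 per h were 0.68 for AOX1, 0.77 for AOX2, 0.56 for FDH1, 0.26 for FLD1 and -0.09 for CTA1, and the same 4 genes of these passed as with it (0.77, 0.85, 0.64, 0.28 and 0.05). The steps of these genes from 0.075 to 0.05 and from 0.05 to 0.025 per h also kept their calls. The synthase and DAK comparisons that changed are given with those genes.

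**Figure D1:**
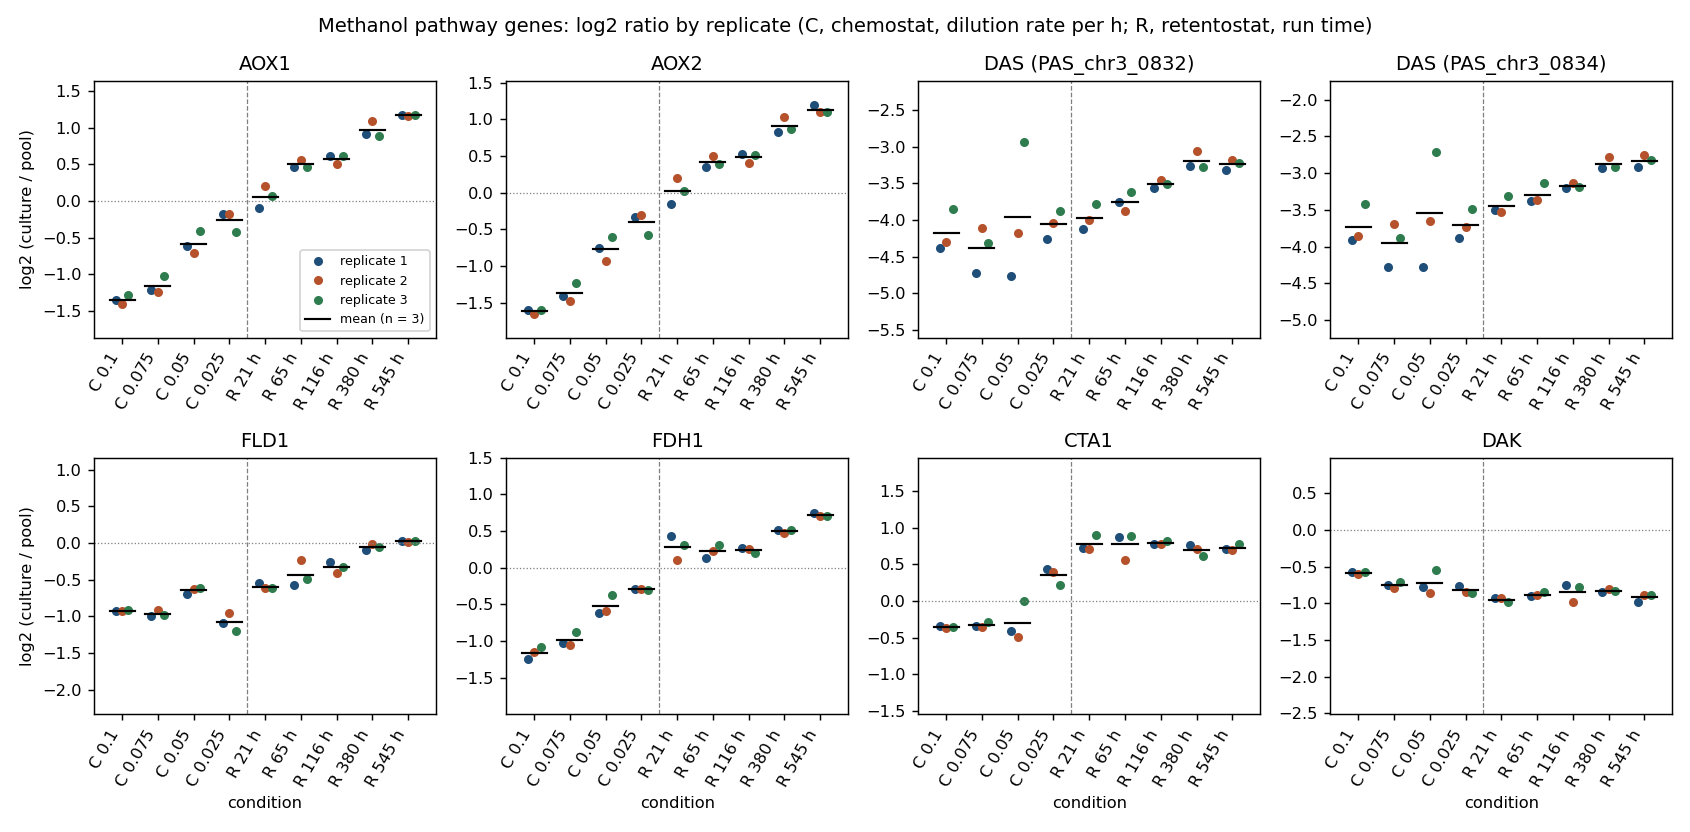
Log2 ratio of culture over pool (vertical axes, which share 1 span but start at different values) for each of the 8 genes across the chemostat dilution rates (C) and retentostat run times (R); points are single replicates, short bars are means (n = 3), and the dotted line at 0, outside the synthase panels, is the pool level. Both oxidases climb from below to above the pool, the synthases stay far below it, and DAK stays below it and falls from -0.58 to -0.92.

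The plot of log2 ratios by condition shows the courses that the following comparisons cover. AOX1 and AOX2, which catalyse the first step and of which AOX1 is known to carry most of the oxidase activity on methanol, had transcript levels that were higher at lower dilution rates and higher again at later retentostat times. They ended 5.71-fold and 6.72-fold above the chemostat at 0.1 per h as ratios to the pool, log2 changes of 2.51 and 2.75, and from the culture channel alone these changes were 1.81 and 1.85. FDH1 followed with a 3.68-fold rise and CTA1 with a 2.12-fold rise. The synthases and FLD1 rose by just under 2-fold, and DAK fell 1.26-fold.

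AOX1 ratios in the chemostat at 0.1 per h were -1.35, -1.40 and -1.29, a mean of -1.34 ± 0.06 or 39.4% of the pool. By dye, these replicates read -1.12, -1.74 and -1.57 with the culture in Cy3 and -1.57, -1.07 and -0.999 in Cy5. The gap between dyes was reversed in replicate 1, and the SD of 0.06 describes the values after dye averaging only. The AOX1 ratios were -1.22, -1.24 and -1.02 at 0.075 per h and -0.61, -0.71 and -0.41 at 0.05 per h. At 0.025 per h they were -0.18, -0.18 and -0.42, or 83.5% of the pool. The replicates at each of the 3 lower rates lay above all those at 0.1 per h, while those at 0.05 and 0.025 per h overlapped. In the retentostats the ratios were -0.10, 0.21 and 0.07 at 21 h, 0.46, 0.57 and 0.47 at 65 h, and 0.61, 0.50 and 0.61 at 116 h. They reached 0.92, 1.09 and 0.89 at 380 h and 1.17, 1.16 and 1.18 at 545 h, or 225% of the pool. From 65 h on, every AOX1 replicate lay above the level of a pool that contained methanol-grown cells. The share of such cells in the pool was not analysed here, so the ratio does not place AOX1 against its level on methanol.

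AOX2, the second oxidase, followed the same course from a lower start relative to its pool level. Its ratios were -1.60, -1.65 and -1.60 at 0.1 per h, 32.6% of the pool, and -0.33, -0.31 and -0.57 at 0.025 per h. At 21 h they were -0.15, 0.20 and 0.03, and at 545 h they were 1.19, 1.09 and 1.11, or 219% of the pool. No AOX2 replicate of a slower condition overlapped with those at 0.1 per h.

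Against the chemostat at 0.1 per h, a gene was called changed at a limma adjusted p below 0.05 (Benjamini-Hochberg over all probes) and a change over 2-fold. At 0.075 per h none of the 8 genes was called, where 0% of all probes were, and at 0.05 per h again none, where 0.242% were. By the adjusted p alone, with the fold size left aside, no gene passed at 0.075 per h (19.4% of all probes did) and 4 genes rose at 0.05 per h, AOX1, AOX2, FDH1 and FLD1 (48.1% of all probes passed, 30.2% as rises). At 0.025 per h AOX1 and AOX2 were called, 2 of 8 where 1.42% of all probes were, 1.14% as rises. By the adjusted p alone 4 genes rose there, AOX1, AOX2, FDH1 and CTA1, and DAK and FLD1 fell (63.7% of all probes passed). The AOX1 change there was 1.09 (SE 0.08, limma adjusted p = 8.75e-11) and that of AOX2 was 1.21 (SE 0.09, limma adjusted p = 4.73e-11). Both sat close to the fold limit, and neither was called with median centring in place of LOESS, from the culture channel alone, or when the change was tested against 2-fold itself. The chemostats at 0.1 and 0.025 per h shared no slide, and within the scanners the AOX1 change was 1.24 (4 arrays against 5) on one and 0.58 (2 against 1) on the other, with unequal dyes.

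In the retentostats 4 of 8 genes were called at every time against the chemostat at 0.1 per h, AOX1, AOX2, FDH1 and CTA1, all higher. The share of all probes called was 10.3% at 21 h (8.08% as rises), 16.7% at 65 h (11.9%), 19.0% at 116 h (12.5%), 20.2% at 380 h (12.3%) and 20.7% at 545 h (12.3%). The AOX1 change was 1.41 at 21 h and 2.51 at 545 h (SE 0.08 for both, limma adjusted p = 1.41e-13 and 8.15e-19). The AOX2 change was 1.64 and 2.75 (SE 0.09, limma adjusted p = 3.44e-14 and 6.03e-19). Of 5371 probes, the rise at 545 h ranked 20 for AOX2, 37 for AOX1 and 121 for FDH1. It ranked 564 for CTA1, 724 for FLD1, 738 for PAS_chr3_0832 and 778 for PAS_chr3_0834, and DAK ranked 3861. The median change of the 8 genes at 545 h was 1.02 and that of all probes 0.06. By the adjusted p alone, 5 genes rose and DAK fell at 21 and 65 h, where 78.3 and 82.3% of all probes passed, and 7 genes rose and DAK fell at 116, 380 and 545 h, where 83.4, 84.2 and 84.3% of all probes passed. Within the only slide that held both conditions with the dyes balanced, 2 arrays against 2, the change at 545 h was 2.48 for AOX1, 2.72 for AOX2, 1.85 for FDH1, 1.05 for CTA1, 0.97 for FLD1 and -0.31 for DAK. From the culture channel alone, without dividing by the pool, 2 genes were called at 21, 65 and 116 h, the oxidases at 21 h with 1.03 and 1.12.

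**Figure D2:**
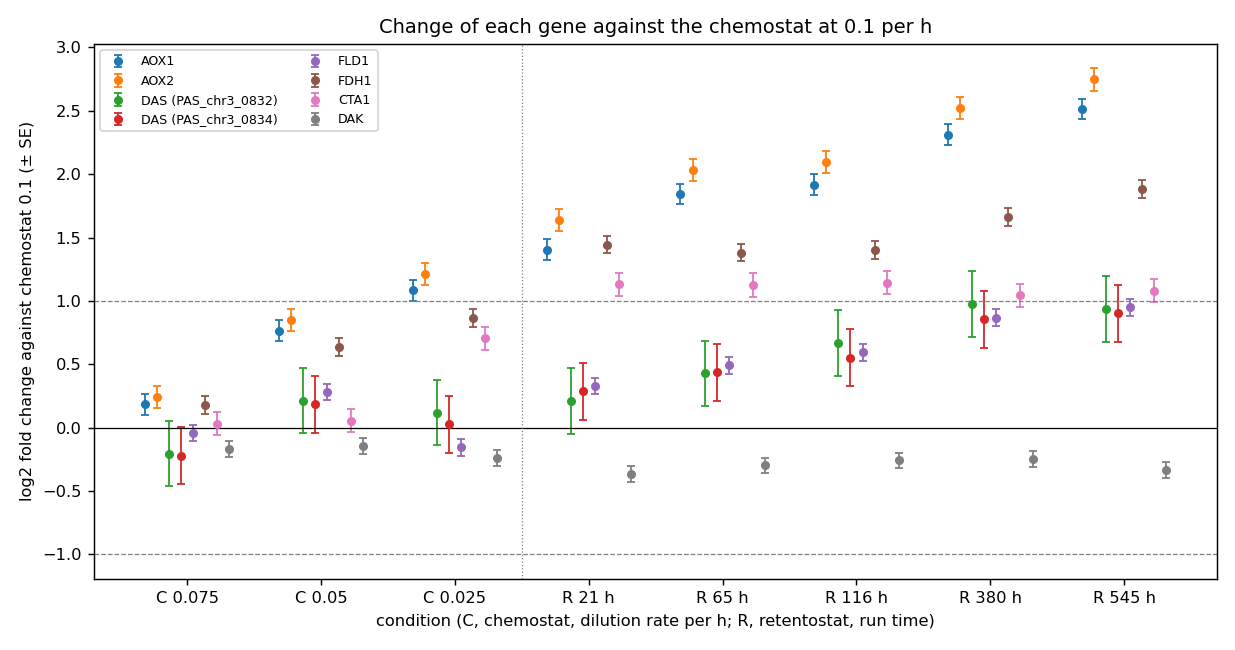
Log2 fold change of each gene against the chemostat at 0.1 per h (vertical axis) in the 8 other conditions (horizontal axis; C, chemostat, R, retentostat). Points are limma estimates, bars are ± SE and dashed lines mark 2-fold changes; at 545 h the changes run from -0.34 for DAK to 2.75 for AOX2, and the synthases have the longest bars.

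The oxidases also rose within the retentostats, where the bioreactor did not change. From 21 to 545 h AOX1 and AOX2 each rose by 1.11 (SE 0.08 and 0.09, limma adjusted p = 2.7e-11 and 9.8e-11), and they were the only 2 of the 8 genes called, where 4.62% of all probes were, 1.12% as rises. By the adjusted p alone, 6 genes rose and CTA1 and DAK did not pass (70.3% of all probes passed, 36.1% as rises). Here too the oxidases sat near the fold limit: within a slide the rise was 1.27 for AOX1 and 1.35 for AOX2 on one and 0.95 and 0.90 on another, and with the culture labelled in Cy3 only, from the culture channel alone, or tested against 2-fold itself, 0 of the 8 genes were called.

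Of the 2 oxidases' total rise from 0.1 per h to 545 h, 43.2% for AOX1 and 44.1% for AOX2 lay within the chemostats. The step from 0.025 per h to the first retentostat sample took 12.7 and 15.6%, and the retentostat period took 44.1 and 40.3%. Step by step, both rose from 0.075 to 0.05, from 0.05 to 0.025 per h, on to 21 h, to 65 h, and from 116 to 380 h. The steps from 0.1 to 0.075 per h, from 65 to 116 h and from 380 to 545 h did not pass, with AOX1 differences of 0.18, 0.07 and 0.20 and AOX2 differences of 0.24, 0.07 and 0.22. The AOX2 step at 0.075 per h, at an adjusted p of 0.0525 in limma, passed when any of 7 single replicates was omitted, among them replicate 3 of the chemostat at 0.05 per h (adjusted p = 0.0394).

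Relative to the pool, the change of AOX2 from 0.1 per h to 545 h exceeded that of AOX1 by 0.23, and from the culture channel alone by 0.035 (exact permutation test, p = 0.6). The within-replicate difference, AOX2 minus AOX1, was -0.27 ± 0.04 at 0.1 per h, -0.14 ± 0.01 at 0.025 per h, -0.04 ± 0.03 at 21 h and -0.04 ± 0.05 at 545 h. The replicates at 0.1 per h and 545 h did not overlap (exact permutation test, two-sided, p = 0.1, below which 3 against 3 replicates cannot go). The oxidase genes are close paralogs, and the probe sequences were not analysed here, so hybridisation of each transcript to the other gene's probe was not tested. Their ratios moved together, with Pearson's r of 0.999 over the 9 condition means and 0.964 over the 27 deviations of single replicates from their means, which share a library.

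CTA1, the peroxisomal catalase that breaks down the hydrogen peroxide made by alcohol oxidase, changed in a narrow part of the series. Its ratios were -0.34, -0.36 and -0.35 at 0.1 per h and -0.34, -0.35 and -0.28 at 0.075 per h. At 0.05 per h they were -0.41, -0.49 and -0.0055, and at 0.025 per h 0.44, 0.39 and 0.22. The first 3 chemostats overlapped, and every replicate at 0.025 per h lay above them. At 21 h the ratios were 0.72, 0.71 and 0.90, and at 545 h 0.70, 0.70 and 0.78, or 171 and 166% of the pool.

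The CTA1 rise passed between 0.05 and 0.025 per h, by 0.65 (SE 0.09, limma adjusted p = 7.31e-06; 0.80 without replicate 3 at 0.05 per h), and from there to 21 h, by 0.42 (SE 0.09, adjusted p = 0.000386). No other step passed. From 21 to 545 h the difference was -0.05, with a 95% interval from -0.24 to 0.14, and the 5 retentostat times did not differ by limma's F test (adjusted p = 0.815; 83.6% of all probes passed that test). Against 0.1 per h, the change was 1.13 at 21 h and 1.08 at 545 h (SE 0.09, limma adjusted p = 6.15e-11 and 7.86e-11), just over 2-fold, and with median centring it was 0.88 at both times and no longer called. From the culture channel alone it was 0.85 and 0.88.

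The dihydroxyacetone synthases, which capture formaldehyde for assimilation, were the genes of the pathway farthest below the pool. They were below it in 27 of 27 replicates and on 54 of 54 arrays, as was DAK. The synthases ranked between 12 and 48 from the lowest of 5371 probes in every condition. PAS_chr3_0832 ratios were -4.38, -4.30 and -3.85 at 0.1 per h, 5.53% of the pool, and -4.73, -4.10 and -4.32 at 0.075 per h. At 0.025 per h they were -4.26, -4.03 and -3.88. The chemostats overlapped throughout. In the retentostats the ratios rose from -4.11, -4.00 and -3.79 at 21 h to -3.57, -3.46 and -3.50 at 116 h and -3.31, -3.18 and -3.22 at 545 h, or 10.6% of the pool. From 116 h on, all replicates lay above those at 0.1 per h.

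PAS_chr3_0834, the second synthase locus, read -3.91, -3.86 and -3.42 at 0.1 per h, 7.53% of the pool. It read -3.50, -3.53 and -3.31 at 21 h and -2.91, -2.76 and -2.82 at 545 h, or 14.1% of the pool. Like its neighbour it overlapped across the chemostats and did not overlap with 0.1 per h at the late retentostat times.

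At 545 h the change against 0.1 per h was 0.94 for PAS_chr3_0832 (SE 0.26, 95% interval 0.40 to 1.47, limma adjusted p = 0.00186) and 0.90 for PAS_chr3_0834 (SE 0.23, 95% interval 0.44 to 1.37, adjusted p = 0.000768). Both passed by the adjusted p and neither by the fold limit. They passed likewise at 380 and 116 h, and at no chemostat rate. Over the 5 retentostat times PAS_chr3_0832 passed limma's F test (adjusted p = 0.0365) and PAS_chr3_0834 did not (adjusted p = 0.0589), a pair of values on either side of the threshold. From 21 to 545 h both rose, by 0.73 (adjusted p = 0.0151) and 0.62 (adjusted p = 0.0181). With all replicates, no step between neighbouring conditions passed for either synthase. Per doubling of retentostat time they rose by 0.17 (SE 0.05) and 0.14 (SE 0.04), with limma adjusted p of 0.00275 and 0.00471. Within the slide that held both conditions the change at 545 h was 0.86 and 0.93.

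Several synthase calls depended on single replicates. Without replicate 3 of the chemostat at 0.05 per h the SEs fell to 0.15, both synthases also passed at 65 h (limma adjusted p = 0.012 and 0.00888), and the change at 0.05 per h turned from 0.21 and 0.19 to -0.30 and -0.23, neither passing. The step from 0.05 to 0.025 per h turned from -0.09 to 0.42 for PAS_chr3_0832, which then passed (adjusted p = 0.0451), and from -0.16 to 0.26 for PAS_chr3_0834, which did not. Without replicate 1 of that chemostat both synthases passed as higher at 0.05 per h, against 0.1 per h (0.62 and 0.55) and against 0.075 per h (0.82 and 0.77), and PAS_chr3_0834 passed as lower from 0.05 to 0.025 per h (-0.53). Without replicate 3 of the chemostat at 0.1 per h, the highest of its group for both, the change at 545 h was 1.10 and 1.06. Of the 8 genes, 6 were then called in place of 4, and the share of all probes in that fit is not given here. Without replicate 1 or 2 of the same chemostat the pass at 116 h was lost for both, and without replicate 2 or 3 at 116 h for PAS_chr3_0834. Without replicate 1 or 3 at 380 h PAS_chr3_0832 was called there. The rise from 21 to 545 h did not pass for PAS_chr3_0832 without replicate 1 at 21 h, nor for PAS_chr3_0834 without replicate 2 at 21 h or at 545 h.

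**Figure D3:**
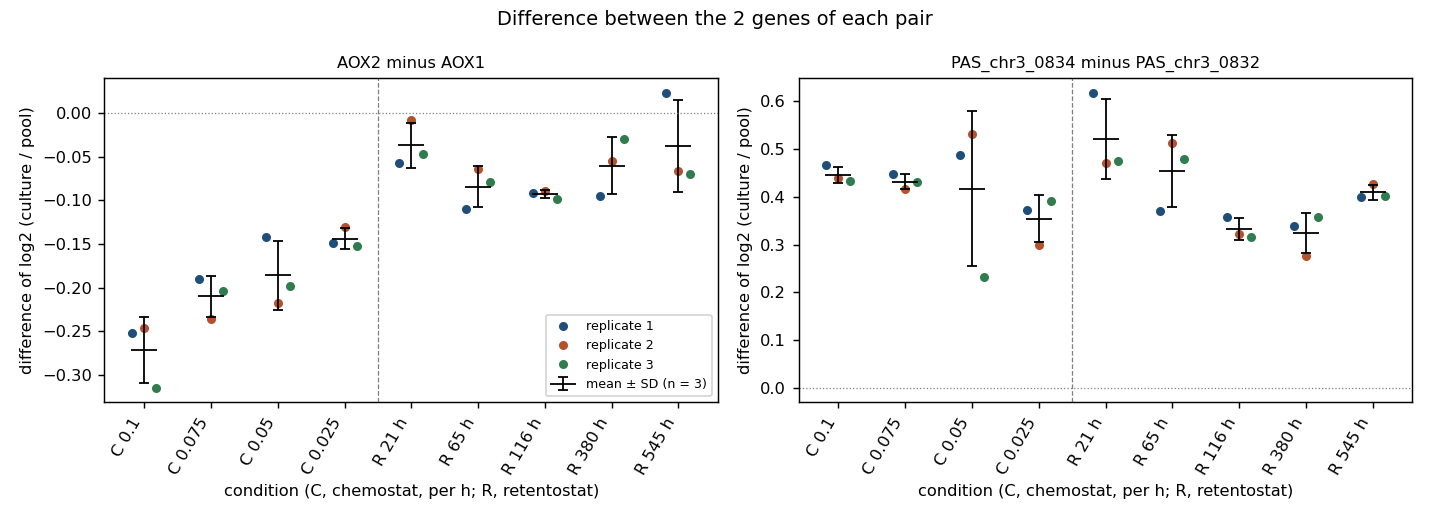
Within-replicate difference of log2 culture over pool, AOX2 minus AOX1 (left) and PAS_chr3_0834 minus PAS_chr3_0832 (right), by condition. Points are single replicates and crosses are mean ± SD (n = 3); the oxidase difference moves from -0.27 at 0.1 per h to -0.04 at 545 h, and the synthase difference stays above 0 in every replicate.

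The synthase pair moved in parallel, with r of 0.990 over the 9 condition means and 0.987 over the 27 replicate deviations. The difference, PAS_chr3_0834 minus PAS_chr3_0832, was 0.45 ± 0.02 at 0.1 per h and 0.41 ± 0.02 at 545 h (change -0.04, p = 0.1 by the same exact test), and with the culture labelled in Cy5 only this change had the opposite sign. These loci too are close paralogs, and exchange of signal between their probes was not tested.

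DAK phosphorylates dihydroxyacetone, the product of the synthases, and it was the only gene of the 8 that was lower at 545 h than at 0.1 per h. Its ratios were -0.58, -0.60 and -0.58 at 0.1 per h, -0.77, -0.84 and -0.86 at 0.025 per h, -0.93, -0.93 and -0.99 at 21 h and -0.98, -0.89 and -0.88 at 545 h. From 66.7% of the pool it reached 52.8%. All replicates from 0.025 per h on lay below those at 0.1 per h. The change was -0.24 at 0.025 per h and -0.34 at 545 h (SE 0.06, limma adjusted p = 0.00199 and 2.62e-05). With all replicates no step between neighbouring conditions passed. Without replicate 3 of the chemostat at 0.05 per h the steps from 0.1 to 0.075 per h (-0.17, adjusted p = 0.0161) and from 0.025 per h to 21 h (-0.13, adjusted p = 0.0263) passed, and the first of these passed on omission of any of 3 single replicates. At 0.05 per h the change of -0.15 missed the threshold (adjusted p = 0.0551) and was -0.24 and passed without replicate 3 (adjusted p = 0.000938). With the culture labelled in Cy5 only, the change at 545 h was -0.22 and did not pass (limma adjusted p = 0.0743).

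FDH1, which oxidises formate to carbon dioxide at the end of the dissimilatory branch, rose with the oxidases in the chemostats. Its ratios were -1.25, -1.15 and -1.09 at 0.1 per h, -0.62, -0.59 and -0.37 at 0.05 per h and -0.28, -0.29 and -0.31 at 0.025 per h. They were 0.44, 0.11 and 0.31 at 21 h, 0.27, 0.26 and 0.20 at 116 h and 0.75, 0.71 and 0.70 at 545 h, a course from 44.7 to 165% of the pool. The replicates of 21, 65 and 116 h overlapped, and those at 380 and 545 h lay above them.

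Against 0.1 per h FDH1 rose by 0.87 at 0.025 per h, by 1.45 at 21 h and by 1.88 at 545 h (SE 0.07 each, limma adjusted p = 2.97e-10, 5.54e-15 and 1.06e-17). Its largest step was that from 0.025 per h to 21 h, 0.58 or 30.7% of the total rise, where the bioreactor changed too. From 21 to 116 h no step passed, and from 116 to 380 h it rose by 0.26 (adjusted p = 0.00552). The change from 21 to 545 h was 0.44 (SE 0.07, adjusted p = 7.21e-06), below 2-fold. From the culture channel alone the change at 21 h was 0.87, under 2-fold, and at 545 h 1.12. The step from 0.05 to 0.025 per h, 0.23 (adjusted p = 0.00923), did not pass without replicate 1 at 0.05 per h. Without replicate 3 at 0.05 per h the step from 0.1 to 0.075 per h, 0.18, passed (adjusted p = 0.0495 in place of 0.0774), as did that from 380 to 545 h.

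FLD1, which oxidises formaldehyde bound to glutathione, was the only gene with steps that passed in both directions. Its ratios were -0.93, -0.93 and -0.92 at 0.1 per h, -0.99, -0.92 and -0.99 at 0.075 per h and -0.69, -0.63 and -0.61 at 0.05 per h. At 0.025 per h they were -1.09, -0.95 and -1.20. The replicates at 0.05 per h lay above all other chemostat replicates and those at 0.025 per h below those of 0.1 per h. In the retentostats the ratios were -0.55, -0.61 and -0.62 at 21 h, -0.27, -0.40 and -0.32 at 116 h and 0.03, 0.02 and 0.02 at 545 h, or 102% of the pool.

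The FLD1 rise from 0.075 to 0.05 per h was 0.32 (limma adjusted p = 0.00112) and the fall from there to 0.025 per h was -0.44 (adjusted p = 1.29e-05), or 0.30 and -0.42 without replicate 3 at 0.05 per h. Over the 8 genes and the 8 steps between neighbouring conditions, 20 of 64 steps passed upward and this 1 downward. Of all probes, 19.4, 24.4 and 46.6% passed at the 3 chemostat steps, 58.0% from 0.025 per h to 21 h, and 44.6, 11.5, 40.6 and 4.60% at the 4 retentostat steps. The count for the 8 genes lay within the range of these shares, which cover either direction. Shares of rises and of falls alone are not given here for these steps, so the split by direction has no array-wide value beside it. The FLD1 difference between 0.025 and 0.1 per h, -0.15 (adjusted p = 0.041), did not pass without any one of the 3 replicates at 0.1 per h, nor without replicate 1 or 3 at 0.025 per h. The step from 21 to 65 h, 0.16, passed narrowly (adjusted p = 0.0483) and did not pass when any of 20 of the 27 replicates was omitted. From 0.025 per h to 21 h FLD1 rose by 0.49 (adjusted p = 9.78e-07), and at 545 h it stood 0.95 above 0.1 per h (SE 0.06, 95% interval 0.82 to 1.08, adjusted p = 1.25e-12). With median centring the difference at 21 h was 0.10 and did not pass, against 0.33 with LOESS.

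**Figure D4:**
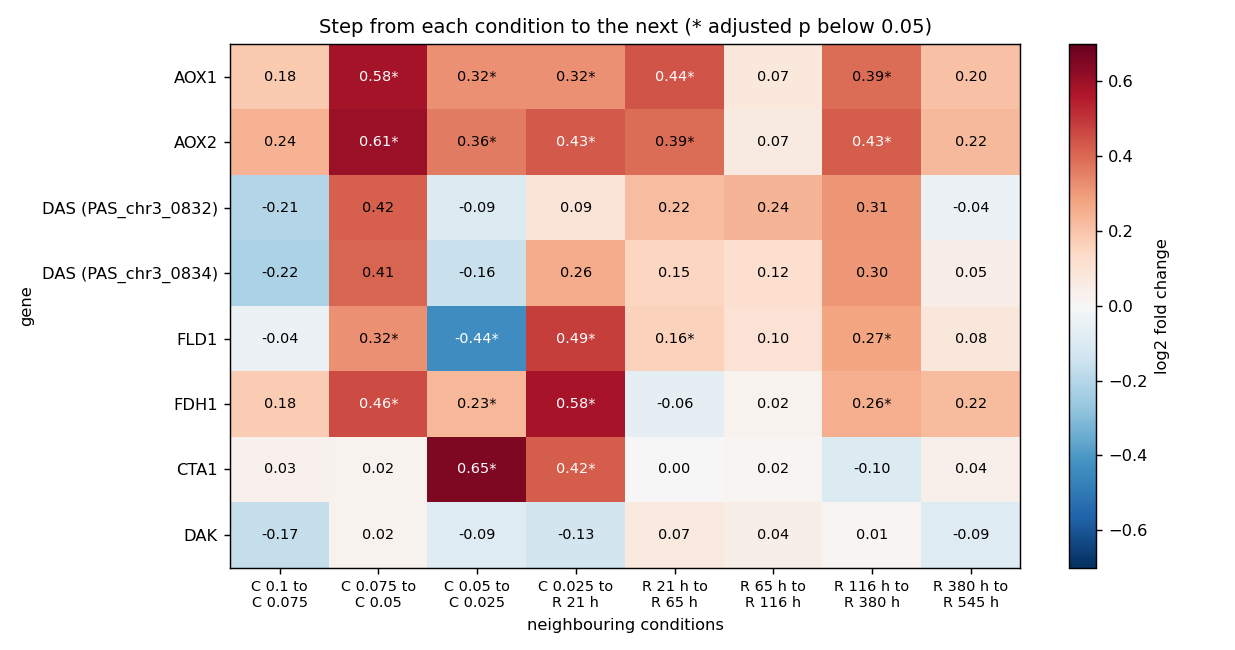
Log2 fold change from each condition to the next slower or later one (columns) for the 8 genes (rows), shown as colour from blue (lower) to red (higher) and as the value in each cell. An asterisk marks a limma adjusted p below 0.05, which 21 of 64 steps reached. Over all probes 4.60 to 58.0% passed, depending on the step. The only blue cell with an asterisk is FLD1 from 0.05 to 0.025 per h, at -0.44.

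The slopes reduce each course to a straight line. They do not show the FLD1 rise and fall between chemostats or the single CTA1 step there. Per halving of the dilution rate across the 4 chemostats AOX2 rose by 0.62, AOX1 by 0.57, FDH1 by 0.45 and CTA1 by 0.36, and DAK fell by 0.10. These 5 genes passed, where 65.5% of all probes did, and the synthases and FLD1 did not. Per doubling of the retentostat time AOX2 rose by 0.23 and AOX1 by 0.22, the synthases by 0.17 and 0.14, FLD1 by 0.13 and FDH1 by 0.09. These 6 passed, where 74.7% of all probes did, and CTA1 (-0.02) and DAK (0.01) did not. Both counts were thus near the share of the whole array. FLD1 and the synthases passed over retentostat time and not over the dilution rate, and CTA1 and DAK the other way round. The difference between the 2 slopes of a gene was not tested, and the slopes are in different units.

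Over the 9 condition means, the Pearson correlation with AOX1 was 0.999 for AOX2, 0.980 for FDH1, 0.939 and 0.932 for the synthases PAS_chr3_0834 and PAS_chr3_0832, 0.897 for CTA1, 0.888 for FLD1 and -0.780 for DAK. Many courses on the array resembled that of AOX1. Of 1549 probes other than the 8 whose means spanned more than 1 on the log2 scale, 79 were more like AOX1 than FDH1 was, 415 and 469 more than PAS_chr3_0834 and PAS_chr3_0832, 632 more than CTA1 and 661 more than FLD1, and none more than AOX2. The closest were the loci PAS_chr2-1_0389 and PAS_chr3_0578, each with r of 0.996 and with rises of 1.21 and 2.58 from 0.1 per h to 545 h. All conditions share the pool and the order of growth rates, and the correlations are descriptions.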

How the data were processed

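RNA of glucose-limited *P. pastoris* cultures was hybridised on 2-colour Agilent arrays against a reference pool, with every replicate repeated with exchanged dyes. Per the file headers, the authors deposited spot and local background intensities (median pixel brightness) from Agilent Feature Extraction 11.5.1.1, with a log10 ratio of red over green corrected for background and dye by that software. A processed table holds the authors' log2 ratios against the pool. Set against the scanner values, 18 of its 54 columns ran in the opposite direction (each with an absolute correlation of at least 0.942), and the columns' medians ran from -0.0258 to 0.0338, so it served only as an alternative. The deposited marks for background, saturation and outliers were used as 0 or 1 per spot.

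Following the study's methods, intensities were background-corrected with normexp (offset 50) and LOESS-normalised within arrays in limma 3.58.1 (R 4.3.3), with the 536 control spots of 12958 at weight 0. The between-array Aquantile step of those methods, which equalises mean log intensities and leaves each array's log ratios as they are, was omitted except for the values from the culture channel alone. Outlier-marked spots (0.676% of the others) were dropped and spots of a probe averaged. Ratios were turned to culture over pool by the dyes in the labels, and the 2 dye orientations averaged into 1 value per replicate, which left 13 missing values over 5371 probes. One mean per condition was fitted to the 27 replicates with lmFit and eBayes (18 residual and 5.38 prior degrees of freedom), with Benjamini-Hochberg adjustment over all probes. The paralog differences were tested by exact permutation. The number of independent cultures, which is below that of numbered replicates, limits the precision. The fit was first run on simulated data with independent replicates, which cannot show how shared cultures or repeated sampling affect it.

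Slide (9), together with a dye term and a random replicate effect, and scanner (2) were tried as blocks. Conditions were also compared within slides (the chemostats at 0.075 and 0.025 per h shared no slide with that at 0.1 per h). The other alternatives changed the background correction, normalisation, dye orientation, probe filter, threshold, source of the ratios and samples fitted.

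The 8 genes were always named, and the closest probes to AOX1 were taken by correlation over condition means among probes spanning more than 1 on the log2 scale. At most 2 of those are printed by identifier, since the annotation used pairs no product with them. Planned lists of other pathways needed product text and were not formed. Names were matched for 5040 of 5318 systematic names. The genes and lists were chosen with earlier results of these data known. No probe sequence or coordinate is given, as the files name no genome build.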

Additional observations from a re-analysis of the deposited data

How the results depend on the processing

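Of 455 values recomputed under 18 other settings for 30 results, 409 kept their direction and their side of the threshold, or their count within 1.5 times, and 46 did not, 8 of which changed sign. Shares of all probes called are given for the main fit only, with and without the fold limit. Counts of genes in the other settings of this section, or with replicates omitted, have no such share beside them. With median centring in place of LOESS, 0 genes were called at 0.025 per h and the change of PAS_chr3_0832 at 21 h was -0.0043. From the culture channel alone, 0 genes were called at 0.025 per h, 2 at 21, 65 and 116 h and 0 between 21 and 545 h, and PAS_chr3_0832 at 21 h was -0.0057. With the culture in Cy3 only, 0 were called between 21 and 545 h, and with Cy5 only the change of the synthase difference was 0.0600. With no fold criterion, 4 genes passed at 0.05 per h, 6 at 0.025 per h, 8 at 116, 380 and 545 h and 6 between 21 and 545 h, since fewer conditions applied. Tested against a 2-fold change, 0 were called at 0.025 per h and 0 between 21 and 545 h. The authors' table as it stands, with 18 columns reversed, gave 0 called at 0.025 per h and at 21, 65, 116, 380 and 545 h, 4 between 21 and 545 h, 0 slopes over the dilution rate and 5 steps between neighbouring conditions. There CTA1 at 21 h was -0.65, DAK at 21 h 1.15, the synthases at 545 h -1.77 and -1.57, and the synthase difference 0.20. With those columns turned, an alternative chosen after seeing the data, the counts of genes called were those of the main setting. Except for the reversed columns and the fold criterion, the cause of these differences was not tested.

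With each of the 27 replicates omitted singly, the fit gave 0 called at 0.075 and 0.05 per h, 2 at 0.025 per h, 4 at 21, 65 and 116 h, 4 to 6 at 380 and 545 h and 2 between 21 and 545 h. It gave 5 to 6 genes with a slope over the dilution rate, 6 over retentostat time, and 20 to 27 neighbouring steps. With slide as a fixed block, a dye term and a random replicate effect together, 6 genes were called at 545 h, the synthases at 1.15 and 1.09 included. With scanner as a block 5 were called there. Replicate numbers gave no clear pairing of the samples. The mean correlation of deviations was 0.0159 for equal numbers and -0.0094 for unequal ones, and 12 of 27 replicates were closest to their own number. These values pool chemostats with retentostats, so they cannot show whether retentostat times of equal number share a culture. With the replicate block 4 genes were called at 545 h, 2 at 0.025 per h and 21 neighbouring steps passed, and no count changed. Signal limited no gene, as all readings were above background.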
